A study of Mus musculus with 20 samples.

Results

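Sca-1-low cells (SL) were compared with double-negative cells (DN), both populations sorted from bone of untreated male wild-type C57BL6 mice 8 weeks old. The members are the 4 SL arrays and the 4 DN arrays, 8 of the 20 arrays of the series. All groups came from collagenase-digested bone and were taken as cells without blood lineage markers (Lin-), without the endothelial protein CD31 and with CD51, the integrin alpha-v chain found on bone-forming cells. SL cells were gated as Sca-1 low and PDGFRa-negative, and DN cells as Sca-1-negative and PDGFRa-negative. The other 3 groups, also of 4 arrays each, were Sca-1-negative and carried PDGFRa alone (A), both PDGF receptors (AB) or PDGFRb alone (B). The titles of the SL and DN samples write the PDGFRb gate in a form that leaves its sign unclear, so nothing is taken from it here. Nothing in the labels says that replicates of a group came from different animals or sorts, and the p-values therefore reflect array-to-array spread alone.

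Sca-1, encoded by Ly6a, is a small lipid-anchored surface protein of the Ly6 family that marks many blood stem cells and, outside the blood, immature connective-tissue cells of vessel walls, fat, skin and periosteum. Osteoblasts form from such immature cells through committed progenitors, which pass through the transcription factors Runx2 and Sp7, then lay down type I collagen and mineralize it. Sca-1 is commonly used to separate immature from committed cells of this lineage in mouse bone, and the PDGF receptors, which are receptor kinases for platelet-derived growth factors, mark several of the stromal and perivascular cell types beside it.

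Levels are log2 intensities of 1 probe set per gene, and differences are SL minus DN on the log2 scale ± SE from limma, with 4 arrays in each group. Each SE takes in the spread within all 5 groups (20 arrays), so it can be wider or narrower than the SL and DN arrays alone would give. A gene is said to have risen or fallen where the Benjamini-Hochberg adjusted p over 9129 genes was under 0.05. In the 8 arrays values lay between 3.52 and 13.63, and array medians between 8.00 and 8.07. Arrays correlated across genes at r = 0.977 to 0.979 within SL and 0.955 to 0.970 within DN, and at 0.825 to 0.853 between an SL and a DN array. Depth has no meaning for these arrays, and the number of arrays limits the precision.

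SL and DN cells differed widely. Of 9129 genes, 2174 were higher in SL (23.8%) and 1938 were lower (21.2%), together 45%. The counts of list members given below are to be read beside these shares. With a log2 difference of at least 1 in size added, 540 were higher (5.92%) and 435 lower (4.77%). The SL arrays lay wholly above the DN arrays for 1932 genes (21.2%) and wholly below them for 1749 (19.2%). The median size of the difference over all genes was 0.29. The median difference was 0.01, which the nearly equal array medians fix, and with quantile normalization 2005 genes were higher and 2039 lower. Among the largest rises were genes of loose connective tissue, of retinoic acid and foreign-compound metabolism and of complement, and among the largest falls genes of growth plate cartilage, of myelin and of mineralization. In the authors' deposited table of the same pair, 5253 of 8513 genes had a q-value under 0.05, 2730 of them with SL above DN and 2523 with SL below, from a limma analysis per the file name. That table covers a different number of genes, reads 1219 genes from another probe set and gives q-values. Its counts are therefore not like for like with those above.

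**Figure D1:**
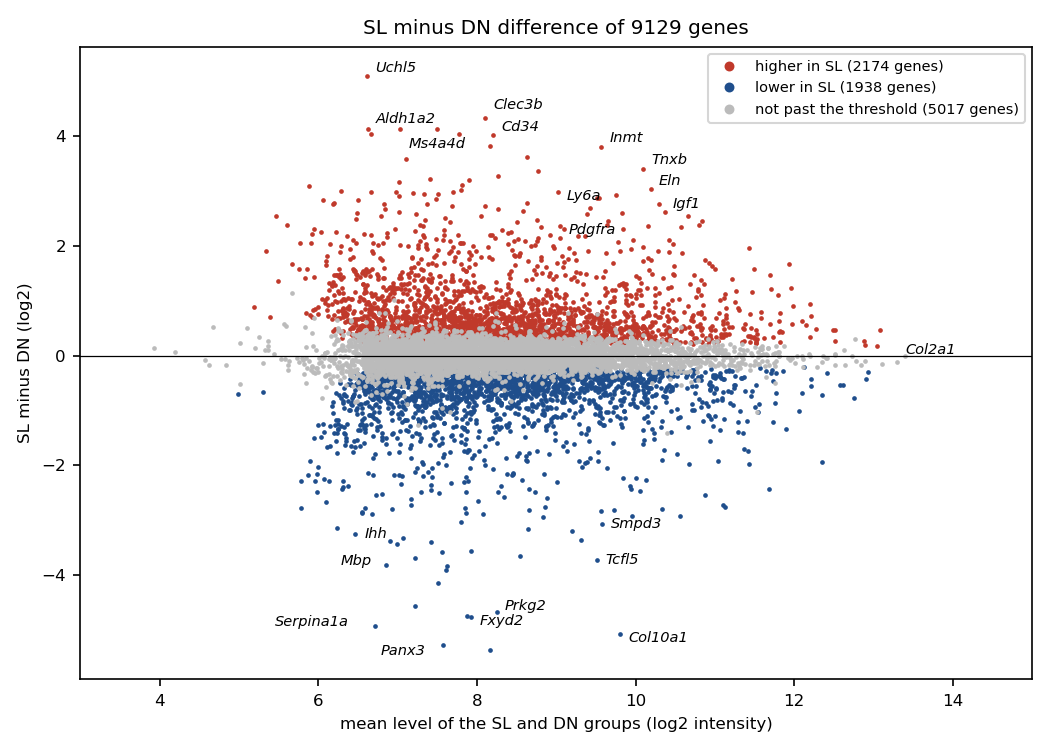
Each point is 1 of 9129 genes. The x axis is the mean log2 intensity of the SL and DN group means and the y axis the SL minus DN difference (log2); red points were higher in SL (2174), blue points lower (1938) and grey points did not pass. Rises reach 5.10 (Uchl5) and falls reach beyond -5 (Panx3, -5.28), and large differences occur at dim and bright levels.

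The transcripts that encode the gated proteins check the sort. Ly6a read 10.78, 10.30, 10.54 and 10.42 in the SL arrays, against 7.27, 7.03, 7.55 and 8.28 in the DN arrays. The groups did not overlap, and the difference was 2.98 ± 0.72, adjusted p = 0.00205, its SE widened by the spread of Ly6a within AB and B, which share the fit. Pdgfra, which encodes the receptor both gates excluded, read 10.34, 10.18, 10.32 and 10.10 in the SL arrays, against 7.51, 7.75, 8.15 and 8.05 in the DN arrays. Every SL array was above every DN array (2.37 ± 0.16, adjusted p = 6.72e-10), and the SL mean of 10.24 ± 0.12 also exceeded that of the PDGFRa-gated A cells, 9.01 ± 0.10 (SD, n = 4 each), by 1.23 ± 0.16, adjusted p = 8e-06. Pdgfrb read 10.19, 10.13, 10.24 and 10.28 in the SL arrays, against 8.87, 8.84, 8.60 and 8.82 in the DN arrays, again without overlap, a difference of 1.43 ± 0.12, adjusted p = 8.1e-09. Itgav, which encodes CD51, did not pass (-0.18 ± 0.12, adjusted p = 0.235, 95% interval -0.43 to 0.07). Neither did Pecam1, which encodes CD31 (0.44 ± 0.32, adjusted p = 0.279, 95% interval -0.23 to 1.12), nor Ptprc, which encodes the pan-leukocyte protein CD45 (-0.16 ± 0.56, adjusted p = 0.845, 95% interval -1.34 to 1.02). Without DN replicate 4, the DN array with the highest Pecam1, Pecam1 was called higher in SL, by 0.79 with an adjusted p of 0.0352. In the authors' deposited table, which names no genome build, Ly6a lies on chromosome 15 from 74994877 to 74998031 on the minus strand.

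**Figure D2:**
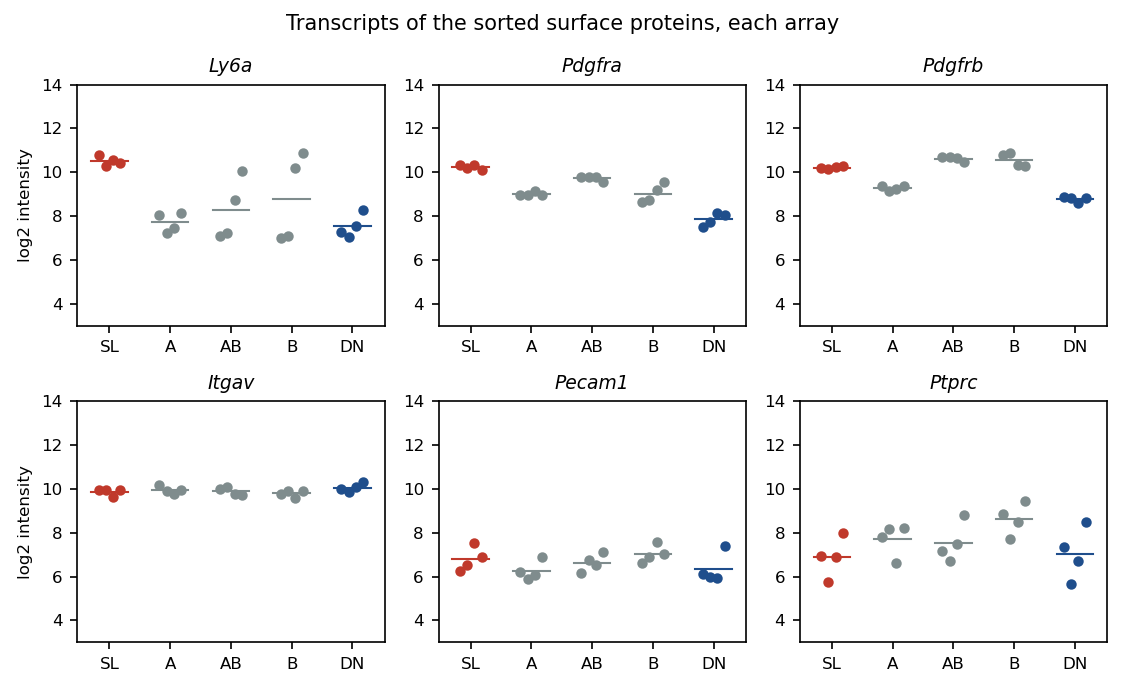
Log2 intensity of the 6 transcripts of the sorted surface proteins, 1 point per array, with bars at group means; SL is red, DN blue and A, AB and B grey. All 4 SL arrays lie above all 4 DN arrays for Ly6a, Pdgfra and Pdgfrb and overlap them for Itgav, Pecam1 and Ptprc.

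Markers of other cells that a bone digest could hold were read in the same arrays. None of 17 neutrophil genes was called in either direction (median -0.02, and from -0.264 without SL replicate 4 to 0.218 without DN replicate 4), and their summed level ran from 13.27 to 14.47 in SL and 13.34 to 14.47 in DN on the log2 scale, highest in replicate 4 of both groups. S100a8, a calcium-binding protein of neutrophils, differed by 0.11 ± 0.31. None of 8 monocyte and macrophage genes was called. Their summed level was 11.05, 10.55, 11.19 and 11.84 in the SL arrays, against 11.41, 10.94, 11.37 and 12.26 in the DN arrays, lower in SL at each replicate number, and 2 were called lower with the replicate number as a block and 4 with the neutrophil score as a covariate. Of 5 endothelial genes, Tek rose (2.84 ± 0.49, adjusted p = 8.81e-05) and Erg fell (-0.46 ± 0.17, adjusted p = 0.0322), while Pecam1, Ramp2 and Egfl7 were not called. The call of Erg ended with the mean or the dimmest of its probe sets (adjusted p = 0.132 and 0.775) and without any 1 of SL replicates 1, 3 and 4 or DN replicates 2, 3 and 4 (adjusted p = 0.0505 to 0.100), Ramp2 was called higher without DN replicate 2 (0.23, adjusted p = 0.035), and the dimmest Ramp2 probe set rose by 1.59. Both muscle genes measured fell, Tnni2 with a difference of -2.78 and Tnnt3 of -1.37, with a summed level of 7.17 to 7.71 in SL and 9.33 to 9.88 in DN. Of 4 erythroid genes Tfrc, the transferrin receptor of all growing cells, fell by 1.80, and Ermap fell by 0.78, a call that ended without any 1 array other than SL replicate 4 (adjusted p = 0.0559 to 0.109). Of 7 osteoclast genes, Ctsk, Acp5, Ckb and Clcn7 rose and Nfatc1 fell, with a summed level of 12.08 to 12.38 in SL and 11.67 to 12.18 in DN. Of 3 B-cell genes only Ebf1, which stromal cells also use, was called (1.21). Of 15 blood stem and progenitor genes 5 were measured, and all 5 rose (100%, against 23.8% over all genes). Their median was 1.05, and the differences ran from 0.41 to the 4.01 of Cd34, which the connective-tissue progenitor list below also holds. Among genes that reached an intensity of 200, 2 of this list were called higher. The part of these cells in the differences below was not tested, and in such bulk samples fewer cells of a type and less RNA per cell cannot be told apart.

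Promoters of 4 matrix genes are shown because secreted matrix led both directions: Tnxb and Svep1, which rose, and Col10a1 and Epyc, which fell. Each is a RefSeq window of 300 bases in GRCm38.p6 that covers a start of the gene and lies mostly before it, written 5′ to 3′ on the gene's strand. For Epyc 2 such windows were listed, and only the first is shown. Capitals mark letters that match, on either strand, a RUNX core (TGTGGT), a SOX core (ACAAAG), an AP-1 site (TGANTCA) or a TATA box (TATAAA), and no matches overlapped. Tnxb lies at chr17:34670285-34670584 on the plus strand, Svep1 at chr4:58206547-58206846 on the minus strand, Col10a1 at chr10:34389731-34390030 on the plus strand and Epyc at chr10:97643818-97644117 on the plus strand.
Tnxb: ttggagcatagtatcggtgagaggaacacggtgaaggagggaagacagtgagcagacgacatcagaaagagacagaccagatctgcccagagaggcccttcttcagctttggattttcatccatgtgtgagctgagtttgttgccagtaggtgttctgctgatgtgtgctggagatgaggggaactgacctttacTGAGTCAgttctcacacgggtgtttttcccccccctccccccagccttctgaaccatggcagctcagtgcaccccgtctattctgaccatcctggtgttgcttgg
Svep1: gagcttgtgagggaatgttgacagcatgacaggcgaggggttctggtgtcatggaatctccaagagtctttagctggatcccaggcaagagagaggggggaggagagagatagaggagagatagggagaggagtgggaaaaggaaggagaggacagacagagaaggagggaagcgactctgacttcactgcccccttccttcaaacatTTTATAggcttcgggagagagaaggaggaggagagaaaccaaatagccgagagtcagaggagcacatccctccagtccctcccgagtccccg
Col10a1: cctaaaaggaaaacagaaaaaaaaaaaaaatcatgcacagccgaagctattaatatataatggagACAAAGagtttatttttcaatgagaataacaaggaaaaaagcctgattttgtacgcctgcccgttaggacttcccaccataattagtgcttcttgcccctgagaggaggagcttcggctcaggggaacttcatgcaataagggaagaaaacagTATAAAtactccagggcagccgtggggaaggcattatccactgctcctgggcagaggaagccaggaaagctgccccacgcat
Epyc: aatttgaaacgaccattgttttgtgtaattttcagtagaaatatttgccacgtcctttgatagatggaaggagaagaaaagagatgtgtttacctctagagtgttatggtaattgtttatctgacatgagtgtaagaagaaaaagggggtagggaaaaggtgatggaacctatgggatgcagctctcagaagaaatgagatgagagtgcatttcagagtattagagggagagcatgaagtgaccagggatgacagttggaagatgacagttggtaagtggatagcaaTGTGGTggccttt
The Tnxb window held 1 AP-1 match, that of Svep1 a TATA match, that of Col10a1 a SOX match and a TATA match, and that of Epyc a RUNX match. Of 27025 mouse promoters of this length, 16.9% held the RUNX core, 18.7% the SOX core, 7.93% the AP-1 site and 14.2% the TATA box, so each letter pattern is common. These matches describe the sequence only.

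Genes of Sca-1-positive connective-tissue progenitors, the fibroblast-like cells of fascia, adventitia and fat, were higher in SL as a group. Of 28 measured, 22 rose and 1 fell, with a median of 1.88 against 0.01 over all genes. Clec3b, which encodes the secreted plasminogen-binding protein tetranectin, read 10.55, 9.98, 10.37 and 10.17 in the SL arrays, against 5.70, 5.38, 6.31 and 6.33 in the DN arrays. The groups were far apart (4.34 ± 0.61, adjusted p = 8.26e-06). Cd34, a sialomucin of blood and stromal progenitors, read 10.53, 9.98, 10.26 and 10.08 in the SL arrays, against 5.70, 5.42, 7.06 and 6.64 in the DN arrays, with no overlap and a difference of 4.01 ± 0.67, adjusted p = 6.43e-05. Tnxb, which encodes the matrix glycoprotein tenascin-X and whose promoter is printed above, read 11.99, 11.54, 11.96 and 11.73 in the SL arrays, against 7.87, 8.04, 8.86 and 8.80 in the DN arrays. It too did not overlap (3.41 ± 0.35, adjusted p = 1.4e-07). Thy1, the surface protein CD90 used to mark mesenchymal stem cells, differed by 3.12 ± 0.16, adjusted p = 2.19e-11. Pi16, a marker of fibroblast progenitors, and Cd55, a shield against complement, rose by 2.95 and 2.97. Gfpt2, an enzyme of hexosamine synthesis, was the 1 gene that fell (-0.91, adjusted p = 0.00114). Pcolce2, an enhancer of collagen processing (-1.03 ± 0.45, adjusted p = 0.0663), Efhd1, Ackr3, Cd9 and Has1 did not pass. With the SL and DN arrays alone in the fit, Pcolce2 was called lower (adjusted p = 0.00028) and Efhd1 and Ackr3 higher (adjusted p = 0.0259 and 0.00296). Of these 28 genes Ly6a alone was used in the sort.

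Several of the largest rises belonged to no list. Uchl5, a deubiquitinase of the proteasome, read 8.29, 8.04, 10.55 and 9.75 in the SL arrays, against 3.89, 4.05, 3.82 and 4.47 in the DN arrays, the largest rise measured (5.10 ± 1.53, adjusted p = 0.0104). The 4 SL arrays themselves spanned more than 2 log2 units, and the SE also takes in the spread within A, AB and B. Inmt, a methyltransferase for indole amines, read 11.52, 11.17, 11.67 and 11.54 in the SL arrays, against 7.16, 7.38, 7.75 and 8.37 in the DN arrays, without overlap. Dpep1, a membrane dipeptidase, rose by 4.04, Scara5, a ferritin-binding scavenger receptor, by 3.61 and Slc47a1, an exporter of organic cations, by 3.58. Svep1, a large secreted adhesion protein, read 9.26, 8.73, 9.10 and 8.96 in the SL arrays, against 5.73, 5.68, 5.76 and 6.03 in the DN arrays (3.21 ± 0.15, adjusted p = 1.07e-11). Nov, a matricellular protein of the CCN family, rose by 3.37, C1qtnf7, a secreted relative of adiponectin, by 3.19, Csn2, which encodes a milk casein, by 3.09 and Ms4a4d by 4.12.

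**Figure D3:**
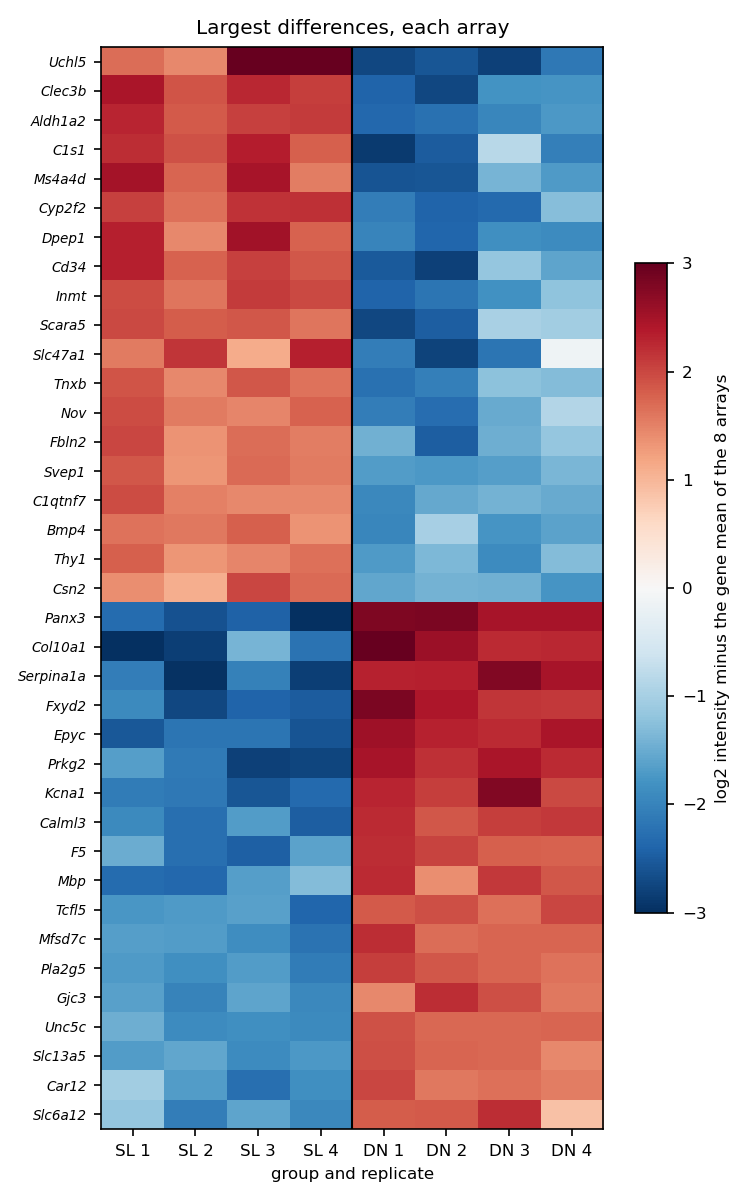
Log2 intensity of genes with the largest differences, minus each gene's mean over the 8 arrays (colour, limited to -3 to 3), with SL replicates 1 to 4 left of DN replicates 1 to 4; the upper rows rose and the lower rows fell in SL. SL and DN arrays lie on opposite sides of the gene mean in every row, with DN replicate 4 close to it for Slc47a1, and DN replicates 3 and 4 are paler than DN replicates 1 and 2 for Scara5, Inmt and Tnxb.

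Elastic fibres, which give tissue its recoil, are built from elastin on a scaffold of fibrillin microfibrils. Of 17 such genes 13 rose and 2 fell (median 1.37). Eln, which encodes elastin, read 11.63, 11.48, 11.73 and 12.005 in the SL arrays, against 7.70, 8.47, 8.99 and 9.53 in the DN arrays, a rise of 3.04 ± 0.25, adjusted p = 6.08e-09 without overlap. Fbln2, a fibulin that links elastic fibres and basement membranes, read 10.26, 9.61, 9.95 and 9.80 in the SL arrays, against 6.82, 5.79, 6.79 and 7.10 in the DN arrays (3.28 ± 0.30, adjusted p = 2.5e-08). Ltbp4, which holds latent TGF-beta in the matrix and supports elastin assembly, rose by 2.92 and Mfap4 by 2.11, and the fibrillins Fbn1 and Fbn2 by 1.37 and 1.23. Emilin1 (-0.47, adjusted p = 0.00454) and Fbln7 (-0.27, adjusted p = 0.0332) fell, the call of Fbln7 ending without any 1 of SL replicates 1 and 2 or DN replicates 1 and 2 (adjusted p = 0.0653 to 0.0982) and with the SL and DN arrays alone and the replicate number as a block (adjusted p = 0.0715). The call of Emilin1 ended with its dimmest probe set (-0.35, adjusted p = 0.214).

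Collagens were more often higher than lower in SL. Of 29 genes 17 rose and 6 fell (median 0.27). Those shares were 58.6% and 20.7%, against 23.8% and 21.2% over all genes, so the share of falls was near that of all genes. Col14a1, which sits on the surface of collagen fibrils in tendon and skin, read 10.95, 10.71, 10.64 and 10.79 in the SL arrays, against 7.54, 7.91, 8.15 and 8.76 in the DN arrays (2.69 ± 0.26, adjusted p = 6.77e-08). Col5a3 rose by 2.60, Col4a1 of the basement membrane by 1.95, and Col8a1 by 1.83. The type I collagen chains Col1a1 and Col1a2, the bulk of bone matrix, rose by 0.27 ± 0.08, adjusted p = 0.0105 and 0.18 ± 0.06, adjusted p = 0.0269, small sizes at levels of 13.01 ± 0.04 in SL and 12.74 ± 0.05 in DN for Col1a1 (SD, n = 4 each). The call of Col1a2 ended without any 1 of SL replicates 1 and 4 or DN replicates 3 and 4 (adjusted p = 0.0517 to 0.0663), and those of both chains ended with the SL and DN arrays alone and the replicate number as a block (adjusted p = 0.0567 and 0.162). Cartilage chains are given below. The collagen-processing enzymes went mostly the other way, with 7 of 24 higher and 12 lower (median -0.29). Adamts2, which removes the amino-terminal propeptide of collagen, and Loxl1, which cross-links elastin, rose by 1.91 and 1.87, and P4ha3, a prolyl 4-hydroxylase subunit, by 1.46. P3h2, a prolyl 3-hydroxylase, read 7.58, 7.18, 7.73 and 7.29 in the SL arrays, against 9.97, 9.76, 9.83 and 9.91 in the DN arrays. That difference was -2.42 ± 0.12, adjusted p = 1.45e-11, and the lysyl oxidase relative Loxl4 fell by 2.23 and the lysyl hydroxylase Plod2 fell by 1.29. P4ha1 and P4ha2, further alpha subunits of prolyl 4-hydroxylase, fell (differences of -0.72 and -0.81).

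Basement membrane and adhesion genes were higher in 13 of 24 cases and lower in 3 (median 0.49). Lamb1, a laminin beta chain, read 10.25, 9.80, 10.23 and 9.83 in the SL arrays, against 7.19, 6.79, 7.61 and 7.38 in the DN arrays, without overlap (2.78 ± 0.16, adjusted p = 5.89e-11). Lamc1, Lama2 and Nid1 rose by 2.31, 2.11 and 1.75, and Itga9, an integrin chain that binds tenascin-C, by 1.77. Nid2, the second nidogen, fell by 2.17 (adjusted p = 1.07e-06), so the nidogens were called in opposite directions. Among 13 small leucine-rich proteoglycans, which coat collagen fibrils, 7 rose and 3 fell (median 0.44, but 0.256 without DN replicate 1). Those shares were 53.8% and 23.1%, against 23.8% and 21.2% over all genes. Podn and Aspn rose by 1.78 and 1.41, Ogn by 0.87, Lum by 0.63 and Dcn by 0.47, while Epyc, Chad and Omd fell (differences of -4.75, -1.70 and -1.31), and Bgn was not called (0.00 ± 0.07). Of 28 matrix proteases and inhibitors 15 rose and 4 fell (median 0.49). Mmp3, which cuts many matrix proteins, rose by 2.45 ± 0.23, adjusted p = 4.27e-08, Mmp11 by 2.43, Adamts15 by 2.05 and Adam33 by 1.76. The 2 largest falls of that list were those of Timp1, an inhibitor of these proteases (-1.13), and Adamts3 (-1.08).

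Complement, the protein cascade that tags and lyses targets, was higher in SL. Of 15 genes 9 rose and none fell by the same test (median 0.95). C1s1, a protease of the first complement component, read 9.71, 9.40, 9.85 and 9.29 in the SL arrays, against 4.62, 4.995, 6.66 and 5.44 in the DN arrays. DN replicate 3 stood above the other DN arrays, and the groups did not overlap (4.13 ± 0.30, adjusted p = 1.47e-09). C3, the central component, read 10.50, 9.94, 10.28 and 10.25 in the SL arrays, against 7.55, 7.46, 8.0000 and 8.76 in the DN arrays (2.30 ± 0.36, adjusted p = 2.6e-05). C1ra rose by 2.64, C4b by 1.32, Cfb of the alternative pathway by 1.97 and the inhibitor Serping1 by 2.46. C5ar1, a receptor of blood cells, was not called, but it was called lower without SL replicate 4 (-0.66, adjusted p = 0.0318) and with the neutrophil score as a covariate (-0.41, adjusted p = 0.0462). Chemokine and cytokine genes rose in 8 of 16 cases and fell in 3 (median 0.38). Il33, an alarmin held in the nucleus of stromal cells, read 8.01, 7.56, 8.07 and 7.52 in the SL arrays, against 4.38, 4.67, 5.14 and 4.94 in the DN arrays (3.01 ± 0.39, adjusted p = 2.98e-06). Ccl11, the eosinophil attractant eotaxin, read 8.89, 8.20, 8.79 and 8.01 in the SL arrays, against 5.37, 5.70, 5.76 and 5.43 in the DN arrays. Its groups were separate as well (2.91 ± 0.30, adjusted p = 1.4e-07). Tnfrsf11b, which encodes osteoprotegerin, the decoy receptor that restrains osteoclasts, fell by 1.41 ± 0.11 (adjusted p = 4.39e-09), and Il11 fell by 0.98. Of 22 interferon and antigen-presentation genes 14 rose and 1 fell (median 0.48), among them Gbp2, a guanylate-binding protein (2.18), Ifitm3, a membrane barrier to viruses (1.69), and Bst2, which tethers viruses (1.09). Irf9, part of the interferon-responsive transcription complex, fell by 0.60.

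Enzymes that make retinoic acid from vitamin A and that handle foreign compounds were higher in SL. Aldh1a2, which makes retinoic acid, read 8.90, 8.46, 8.67 and 8.72 in the SL arrays, against 4.27, 4.39, 4.66 and 4.90 in the DN arrays, a rise of 4.13 ± 0.49, adjusted p = 9.98e-07 without overlap. Aldh1a1 rose by 2.17, Adh1 by 1.81 and the retinoic acid carrier Crabp2 by 1.35. In all, 9 of 19 genes of this pathway rose and 3 fell (median 0.32), the falls including Rarres1 (-1.56) and Rbp4 (-0.60). Of 22 detoxification and redox genes 17 rose and none fell (median 1.24, the others short of the threshold). Cyp2f2, a cytochrome P450, read 8.72, 8.31, 8.83 and 8.86 in the SL arrays, against 4.58, 4.26, 4.34 and 5.37 in the DN arrays (4.04 ± 0.29, adjusted p = 1.15e-09). Mgst1, a membrane glutathione transferase, rose by 2.95, the flavin monooxygenases Fmo1 and Fmo2 by 2.20 and 2.60, and Gstm1 and Gstt1, which are glutathione transferases, by 2.14 and 2.44.

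**Figure D4:**
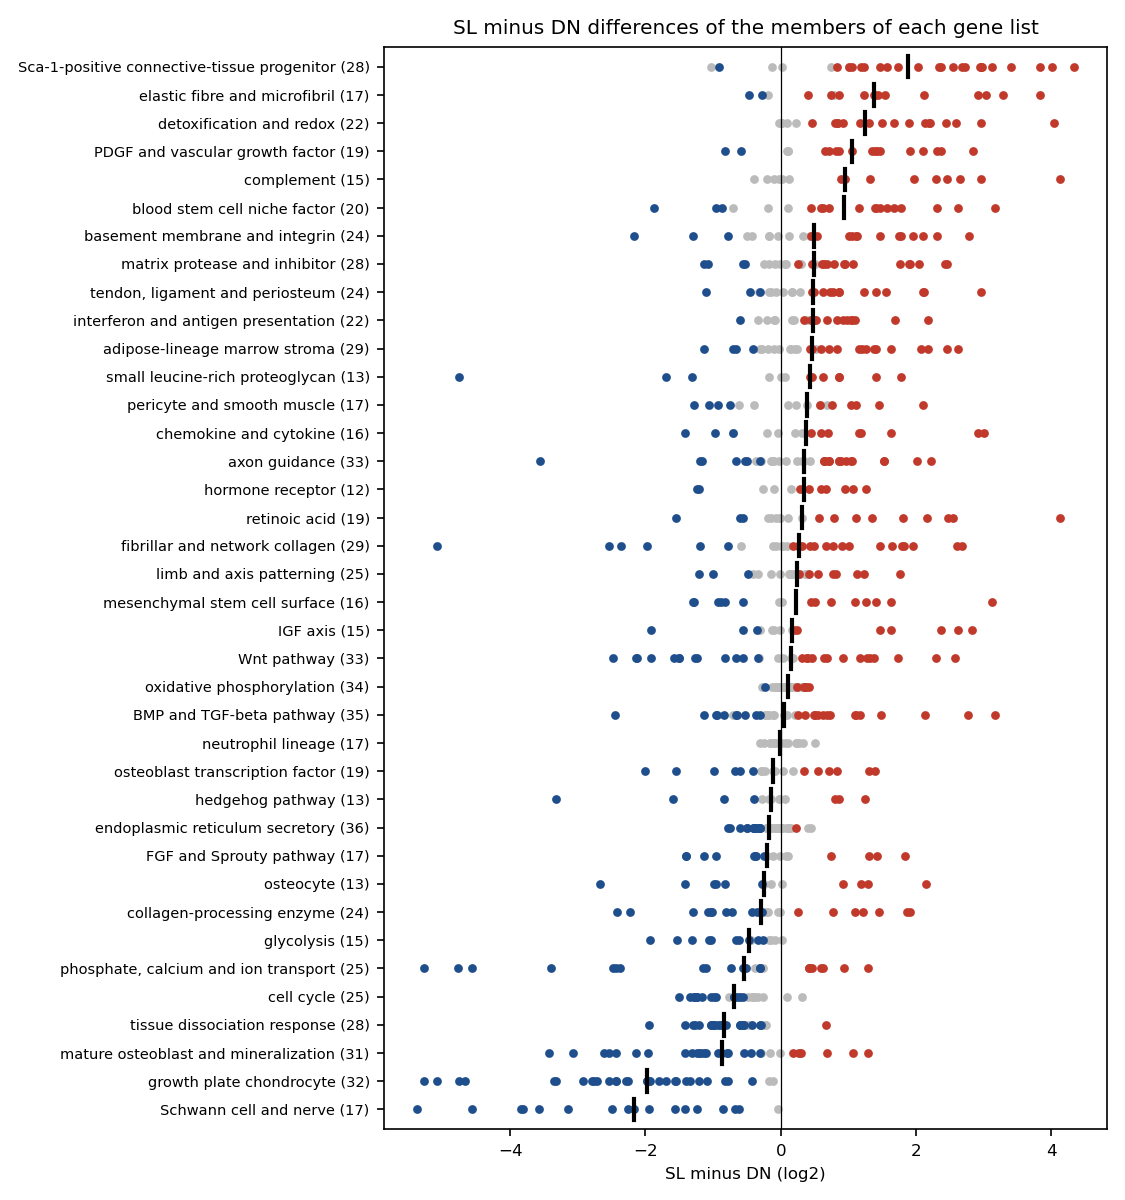
SL minus DN difference (log2, x axis) of every measured member of the gene lists with at least 12 measured members (number in brackets), 1 point per gene; red points rose, blue points fell, grey points did not pass, and the black tick is the list's median. Medians run from -2.16 for the Schwann cell list to 1.88 for the connective-tissue progenitor list.

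Growth-factor pathways held large changes in both directions. In the BMP and TGF-beta family 15 of 35 genes rose and 10 fell (median 0.05, but 0.0117 without SL replicate 2, -0.0153 without DN replicate 1, 0.0321 without DN replicate 2 and 0.115 without DN replicate 3). Bmp4, a ligand that drives bone and cartilage formation, read 8.65, 8.60, 8.81 and 8.36 in the SL arrays, against 5.05, 6.02, 5.26 and 5.41 in the DN arrays (3.17 ± 0.31, adjusted p = 8.4e-08). Bmp7, another such ligand, read 6.02, 6.08, 6.54 and 6.14 in the SL arrays, against 8.44, 8.64, 8.73 and 8.78 in the DN arrays and fell by 2.45 (adjusted p = 1.24e-09), and Bmp2 fell by 0.94. Fst, which binds and blocks activins, and Inhbb, an activin subunit, rose by 2.77 and 1.48, as did the receptor Acvrl1 by 2.14, and Chrdl1, a BMP antagonist, fell by 1.13. Wnt genes changed both ways, with 14 of 33 higher and 13 lower (median 0.15, but 0.0187 without SL replicate 1, 0.079 without DN replicate 3 and 0.0614 without DN replicate 4). The secreted Wnt-binding proteins Sfrp4 and Sfrp2 rose by 2.58 and 2.29, and their relative Frzb fell by 2.49. Lgr6, a receptor for R-spondins, read 7.54, 7.38, 7.42 and 7.23 in the SL arrays, against 9.81, 9.42, 9.57 and 9.32 in the DN arrays (-2.14 ± 0.25, adjusted p = 6.87e-07). The ligand Wnt4 fell by 2.12, Wnt5a rose by 1.38, and the nuclear factor Lef1 fell by 1.92.

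Hedgehog signals pass from Indian hedgehog, made by prehypertrophic chondrocytes, to the receptor Ptch1, whose own transcript rises when the pathway is active. Of 13 genes 3 rose and 4 fell (median -0.14, but -0.0866 without SL replicate 2 and -0.0779 without DN replicate 1). These were 23.1% and 30.8%, against 23.8% and 21.2% over all genes. The ligand Ihh read 5.19, 5.45, 5.41 and 5.55 in the SL arrays, against 9.50, 9.03, 8.38 and 7.99 in the DN arrays, without overlap (-3.33 ± 0.31, adjusted p = 4.04e-08). Ptch1 read 8.80, 9.05, 9.01 and 8.84 in the SL arrays, against 10.51, 10.61, 10.46 and 10.47 in the DN arrays (-1.59 ± 0.11, adjusted p = 1.38e-09). Hhip, an inhibitor that hedgehog signals induce, fell by 0.84 and Smo, the signal transducer, fell by 0.39, a call that ended without any 1 of SL replicates 3 and 4 or DN replicates 2 and 4 (adjusted p = 0.0503 to 0.0905). The co-receptors Gas1, Cdon and Boc rose by 1.25, 0.87 and 0.80, and Gli1, a target and effector, was not called (-0.03 ± 0.20, 95% interval -0.45 to 0.38).

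Among FGF genes 4 of 17 rose and 8 fell (median -0.21, but -0.137 without SL replicate 2), or 23.5% and 47.1%, against 23.8% and 21.2% over all genes. Fgf7 and Fgf10, which stromal cells make for epithelia, rose by 1.42 and 0.74, Fgf18 by 1.31 and the feedback inhibitor Spry1 by 1.83. Fgfr3, the receptor that slows growth plate chondrocytes, and Fgfrl1, a receptor without a kinase, fell (differences of -1.40 and -1.40). In the IGF axis 7 of 15 rose and 3 fell (median 0.17). Igf1 read 11.998, 11.47, 11.61 and 11.63 in the SL arrays, against 8.85, 9.09, 9.19 and 9.10 in the DN arrays, a rise of 2.62 ± 0.14, adjusted p = 2.21e-11. The binding proteins Igfbp3, Igfbp6, Igfbp4 and Igfbp5 rose by 2.83, 2.38, 1.63 and 1.47, while the receptor Igf1r was not called (-0.13 ± 0.20) and Stc2, an inhibitor of the protease that frees IGF, fell by 1.91.

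Of 19 PDGF and vascular growth-factor genes 14 rose and 2 fell (median 1.05). Tek, the angiopoietin receptor of endothelial and some perivascular cells, read 7.95, 6.78, 8.12 and 7.07 in the SL arrays, against 4.82, 4.37, 4.38 and 4.98 in the DN arrays, without overlap. Its ligand Angpt1 read 8.04, 8.01, 8.13 and 8.30 in the SL arrays, against 6.62, 5.55, 5.01 and 6.07 in the DN arrays (2.31 ± 0.24, adjusted p = 1.57e-07). Vegfc, the lymphatic growth factor, rose by 1.91. Vegfa, the main blood vessel growth factor, and Pdgfa, a ligand of PDGFRa, fell, with differences of -0.82 (adjusted p = 0.000676) and -0.59 (adjusted p = 0.000171). Hormone receptors rose in 7 of 12 cases and fell in 2 (median 0.35). The falls were the parathyroid hormone receptor Pth1r (-1.21 ± 0.11, adjusted p = 4.25e-08) and the vitamin D receptor Vdr (-1.23 ± 0.29, adjusted p = 0.00147), which act on osteoblasts. Rises included the leptin receptor Lepr (1.26), the growth hormone receptor Ghr (0.66) and the oestrogen receptor Esr1 (0.60).

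Factors that support blood stem cells in marrow were higher in 14 of 20 cases and lower in 3 (median 0.94), and genes of the adipose-lineage marrow stroma in 15 of 29 and 4 (median 0.46). Cxcl12, the chemokine that holds blood stem cells in marrow, read 8.55, 8.54, 9.41 and 9.06 in the SL arrays, against 8.36, 8.74, 7.82 and 8.24 in the DN arrays. DN replicate 2 lay above the SL replicates 1 and 2, so the groups overlapped, and the difference was 0.60 ± 0.19, adjusted p = 0.0142. Its call ended without SL replicate 3 (adjusted p = 0.0683), without DN replicate 3 (adjusted p = 0.0651) and with the SL and DN arrays alone (adjusted p = 0.057). Kitl, the stem cell factor, rose by 0.71 ± 0.16, adjusted p = 0.00132, Vcam1, an adhesion receptor for blood cells, by 1.41 and Lepr by 1.26. Adipoq, the adipocyte hormone adiponectin that such stroma also makes, was not called (0.52 ± 0.29, adjusted p = 0.156). AB cells held far more of these transcripts, with means of 12.54 for Cxcl12, 9.26 for Kitl and 10.11 for Lepr, against SL means of 8.89, 6.28 and 7.83. SL minus AB was -3.65 ± 0.19, adjusted p = 1.48e-10 for Cxcl12. Ebf2, an early B-cell factor of fat and bone progenitors, and Lpl, a lipase, rose by 2.63 and 2.18. Emb, an immunoglobulin-family surface protein, fell by 1.87.

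Genes of growth plate cartilage were lower in SL as a group. Of 32 measured 30 fell and none rose by the test (median -1.98), and their summed level was 15.54 to 15.64 in SL and 16.87 to 17.10 in DN. Panx3, a channel of prehypertrophic chondrocytes and osteoblasts, read 5.27, 4.96, 5.15 and 4.36 in the SL arrays, against 10.38, 10.39, 10.05 and 10.04 in the DN arrays (-5.28 ± 0.31, adjusted p = 1.01e-10). Col10a1, the collagen of hypertrophic cartilage, read 6.08, 6.99, 8.41 and 7.58 in the SL arrays, against 12.90, 12.36, 12.04 and 12.06 in the DN arrays. No arrays overlapped (-5.08 ± 0.85, adjusted p = 6.46e-05). Epyc, an epiphyseal cartilage proteoglycan whose promoter is printed above with that of Col10a1, read 5.34, 5.68, 5.68 and 5.30 in the SL arrays, against 10.41, 10.18, 10.10 and 10.32 in the DN arrays (-4.75 ± 0.37, adjusted p = 3.51e-09). Prkg2, a cGMP-dependent kinase needed for growth plate maturation, and Scrg1, which chondrocytes make, fell (differences of -4.67 and -3.36). Sox9, the master regulator of cartilage, fell by 1.95 ± 0.20 (adjusted p = 1.22e-07), and the matrix genes Matn3 and Col9a2 fell (differences of -2.92 and -2.80). Col2a1, the principal collagen of cartilage, was among the 2 genes not called: it read 13.20, 13.29, 13.24 and 13.21 in the SL arrays, against 13.39, 13.33, 13.63 and 13.05 in the DN arrays, near the top of the measured range in all 8 arrays (-0.12 ± 0.14, adjusted p = 0.533, 95% interval -0.41 to 0.18). Fmod was the other (-0.18), called lower with a variance trend and robust variances (adjusted p = 0.0424).

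Schwann cell and nerve genes were also lower. Of 17 measured 16 fell (median -2.16), with a summed level of 11.94 to 12.03 in SL and 13.32 to 13.54 in DN. Mbp, which compacts myelin, read 4.55, 4.49, 5.21 and 5.55 in the SL arrays, against 9.10, 8.24, 8.97 and 8.72 in the DN arrays (-3.81 ± 0.35, adjusted p = 3.36e-08). SL replicate 4 was the highest SL array, still well below the lowest DN array. Kcna1, a potassium channel of axons, fell by 4.56, Gjc3, a connexin of myelinating glia, fell by 3.57 and Erbb3, the neuregulin receptor of Schwann cells, fell by 3.15. The lineage factor Sox10 differed by -1.56 ± 0.13, adjusted p = 1.28e-08, while Pmp22, which many cell types make, did not pass (-0.05).

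Mature osteoblast and mineralization genes fell in 21 of 31 cases and rose in 6 (median -0.87). Slc13a5, a citrate importer that supplies bone mineral, read 5.32, 5.42, 5.10 and 5.26 in the SL arrays, against 8.93, 8.74, 8.71 and 8.43 in the DN arrays, without overlap (-3.43 ± 0.17, adjusted p = 1.45e-11). Smpd3, a sphingomyelinase needed for mineralization, read 8.10, 8.41, 8.23 and 7.45 in the SL arrays, against 11.39, 11.42, 10.90 and 10.73 in the DN arrays (-3.06 ± 0.23, adjusted p = 2.25e-09). Phospho1, the phosphatase of matrix vesicles, fell by 1.96, Bmp8a fell by 2.61 and Car3, a carbonic anhydrase, fell by 2.43. Alpl, the alkaline phosphatase that releases phosphate for mineral, read 11.14, 11.12, 10.81 and 11.08 in the SL arrays, against 12.18, 12.20, 11.68 and 11.81 in the DN arrays (-0.93 ± 0.15, adjusted p = 3.16e-05). Spp1, which encodes the mineral-binding protein osteopontin, read 11.45, 11.17, 11.17 and 11.49 in the SL arrays, against 12.36, 12.18, 12.04 and 12.16 in the DN arrays (-0.87 ± 0.11, adjusted p = 2.18e-06). Ibsp, bone sialoprotein, read 12.08, 12.04, 11.83 and 12.04 in the SL arrays, against 12.61, 12.50, 12.34 and 12.26 in the DN arrays (-0.43 ± 0.10, adjusted p = 0.00131). The differences of Alpl, Spp1 and Ibsp were far smaller than those of Slc13a5 and Smpd3, though their arrays did not overlap either, and Spp1 and Ibsp read above 11 in all 8 arrays.

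Of 13 osteocyte genes 4 rose and 6 fell (median -0.24). Dmp1, a matrix phosphoprotein of osteocytes and late osteoblasts, read 4.61, 4.71, 4.93 and 4.78 in the SL arrays, against 7.73, 7.34, 7.63 and 7.01 in the DN arrays, with SL arrays near the dim end of the range (-2.67 ± 0.24, adjusted p = 2.12e-08). Pdpn, which encodes podoplanin, a surface protein of early osteocytes and of many fibroblasts, rose by 2.15 ± 0.18, adjusted p = 6.91e-09, and Kcnk2, Tmem119 and Wnt16 rose by 1.30, 1.19 and 0.91. Transcription factors of the osteoblast lineage were divided, with 6 of 19 higher and 6 lower (median -0.12, but -0.0618 without SL replicate 1 and -0.192 without DN replicate 1). Runx2, the factor that commits cells to bone, read 9.97, 10.33, 9.92 and 10.19 in the SL arrays, against 10.34, 10.74, 10.31 and 10.19 in the DN arrays and was not called (-0.29 ± 0.17, adjusted p = 0.166, 95% interval -0.65 to 0.06). It was called lower with the mean of its probe sets (-0.39, adjusted p = 0.0223) and with the dimmest of them (-0.48, adjusted p = 0.0294). Sp7, which acts after it, read 8.06, 8.12, 7.35 and 7.80 in the SL arrays, against 8.86, 8.37, 8.31 and 8.46 in the DN arrays. Sp7 fell (-0.67 ± 0.22, adjusted p = 0.0175), a call that ended without SL replicate 3 (adjusted p = 0.0759) and without DN replicate 1 (adjusted p = 0.0637). Runx3 fell by 2.003, Mef2c, which also drives chondrocyte hypertrophy, fell by 1.55 and Irx5 fell by 0.99. Twist2 and Twist1, which hold back Runx2, rose by 1.39 and 0.72, as did Zfp423, a factor of preadipocytes, by 0.83.

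Ion transporters and channels fell in 16 of 25 cases and rose in 7 (median -0.54). Fxyd2, a regulatory subunit of the sodium pump, read 6.02, 5.18, 5.53 and 5.43 in the SL arrays, against 10.76, 10.36, 10.08 and 10.04 in the DN arrays (-4.77 ± 0.32, adjusted p = 5.95e-10). Car12, a membrane carbonic anhydrase, fell by 3.39, Slc26a2, the sulfate importer that cartilage needs, fell by 2.48 and Trpv4, a calcium channel, fell by 2.38. Several large falls had no list. Serpina1a, an alpha-1-antitrypsin, read 4.64, 3.74, 4.68 and 3.90 in the SL arrays, against 9.01, 9.04, 9.48 and 9.19 in the DN arrays (-4.94 ± 0.29, adjusted p = 1.02e-10). Calml3, a calmodulin relative, F5, coagulation factor V, and Tcfl5, a transcription factor, fell (differences of -4.15, -3.90 and -3.72). Pla2g5, a secreted phospholipase A2, fell by 3.65, Mfsd7c fell by 3.70 and Slc6a12, a betaine transporter, fell by 3.37.

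Among groups of general cell function, most glycolysis and cell cycle genes were lower in SL, while most secretory-pathway genes and most subunits of oxidative phosphorylation were not called. Of 15 glycolysis genes 10 fell and none rose by the test (median -0.47), the largest being Hk2, a hexokinase (-1.93 ± 0.21, adjusted p = 4.1e-07), and Slc2a1, the glucose importer GLUT1 (-1.53 ± 0.18, adjusted p = 6.69e-07). Of 34 subunits of oxidative phosphorylation 5 were higher, 3 without SL replicate 3 and 10 without DN replicate 1 (median 0.11, but 0.182 without DN replicate 1, 0.0744 without DN replicate 2 and 0.0732 without DN replicate 3). The count lower was 1, and 0 with the SL and DN arrays alone or without any 1 of SL replicates 1, 3 and 4 or DN replicates 2, 3 and 4. Of 25 cell cycle genes 15 fell and none rose by the test (median -0.69), with a summed level of 11.84 to 12.09 in SL and 12.49 to 12.93 in DN. Top2a, a topoisomerase of dividing cells, read 6.64, 6.63, 6.74 and 7.21 in the SL arrays, against 8.55, 8.27, 7.96 and 8.48 in the DN arrays. That was a difference of -1.51 ± 0.29, adjusted p = 0.000281, and Rrm2, which makes nucleotides for DNA, and Ccna2, a cyclin, fell (differences of -1.34 and -1.28). Secretory-pathway genes of the endoplasmic reticulum fell in 13 of 36 cases and rose in 1 (median -0.17), with Creb3l2, a factor that expands the secretory machinery, at -0.75. The falls were 36.1% of the list, against 21.2% over all genes, 22 genes were not called, and none fell by 1 or more. The rise, of the chaperone Hyou1 (0.22), was not called without any 1 of SL replicates 1, 3 and 4 or DN replicates 1 and 4 (adjusted p = 0.0524 to 0.146), with the SL and DN arrays alone (adjusted p = 0.103) or with the mean of its probe sets (adjusted p = 0.358).

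Immediate early and heat-shock genes, which digestion and sorting can induce, were lower in SL too. Of 28 measured 22 fell and 1 rose (median -0.84), with a summed level of 15.27 to 15.50 in SL and 15.9997 to 16.16 in DN. Fos, a subunit of AP-1, read 12.23, 12.32, 12.38 and 12.30 in the SL arrays, against 12.81, 12.73, 12.91 and 12.93 in the DN arrays (-0.54 ± 0.10, adjusted p = 0.000255), and Jun fell by 0.86. Dnajb1, a heat-shock cochaperone, fell by 1.41, Myc fell by 1.30 and Btg2 fell by 1.27, and Hspb1 rose by 0.67. The part of this difference in the other falls was not tested.

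Genes of neighbouring connective tissues were mixed. Tendon, ligament and periosteum genes rose in 13 of 24 cases and fell in 3 (median 0.48). Scx, the tendon transcription factor, rose by 0.78 ± 0.25, adjusted p = 0.0157, a call that ended without DN replicate 3 (adjusted p = 0.0605) and without DN replicate 4 (adjusted p = 0.0521). Other rises were Thbs2 by 1.56 and Angptl7 by 2.10, while Mkx and Tnmd, 2 further tendon genes, were not called (-0.32 and 0.29). Pericyte and smooth muscle genes rose in 6 of 17 cases and fell in 4 (median 0.38, but 0.245 without SL replicate 2 and 0.234 without DN replicate 3). Those shares were 35.3% and 23.5%, against 23.8% and 21.2% over all genes. The contractile genes Acta2 and Myl9 rose by 1.12 and 1.03, and the pericyte markers Mcam and Cspg4 fell (differences of -1.28 and -0.93). Rgs5, a pericyte marker, was not called (0.38 ± 0.38). Surface proteins used for mesenchymal stem cells rose in 8 of 16 cases and fell in 6 (median 0.23), with Gpc3, a glypican, up by 1.62 and Itga6 down at -1.30.

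Axon guidance genes, many of which also steer vessels and bone cells, rose in 15 of 33 cases and fell in 7, or 4 without DN replicate 2 (median 0.35). With all arrays the shares higher and lower were 45.5% and 21.2%, against 23.8% and 21.2% over all genes. Ntn1 and Slit3, secreted guidance cues, rose by 2.23 and 2.02, and the semaphorins Sema3a and Sema3f by 1.52 and 1.52. Unc5c, a receptor for netrins, read 6.46, 6.03, 6.08 and 6.005 in the SL arrays, against 9.83, 9.66, 9.65 and 9.68 in the DN arrays, a difference of -3.56 ± 0.15, adjusted p = 4.69e-12 without overlap. Limb and axis patterning genes rose in 8 of 25 cases and fell in 3, or 5 with the SL and DN arrays alone and the replicate number as a block (median 0.23, but 0.153 without DN replicate 4). Prrx1 and Prrx2, homeobox genes of limb mesenchyme, rose by 1.23 and 1.76. Hoxc8, a homeobox gene of the trunk, fell by 1.21.

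The 3 groups gated for a PDGF receptor place these differences. SL minus A, SL minus AB and SL minus B share the SL arrays with the comparison above, so their values are given side by side. SL was higher than A for 1534 genes (16.8%) and lower for 1442 (15.8%), higher than AB for 400 (4.38%) and lower for 449 (4.92%), and higher than B for 514 (5.63%) and lower for 628 (6.88%). Clec3b, with SL at 10.27 ± 0.25, averaged 7.11 ± 0.53 in group A, 8.28 ± 1.15 in group AB, 7.999 ± 1.69 in group B and 5.93 ± 0.47 in DN (SD, n = 4 each). SL minus A was 3.15 ± 0.61, adjusted p = 0.000473, and within AB and B the arrays spread widely. Though AB and B were gated as Sca-1-negative, Ly6a read 7.01, 7.098, 10.18 and 10.899 in the B arrays. It read 7.098, 7.24, 8.72 and 10.05 in the AB arrays. B replicate 4 thus lay above every SL array for Ly6a. The summed level of the connective-tissue progenitor list was 14.52, 14.45, 15.15 and 15.34 in the B arrays, against 15.45 to 15.65 in SL. Tek was higher in SL than in A (2.67 ± 0.49, adjusted p = 0.000285), AB (2.34 ± 0.49, adjusted p = 0.00329) and B (1.75 ± 0.49, adjusted p = 0.0215). Leaving out SL replicate 1, SL replicate 3, B replicate 1 or B replicate 2 ended the call against B (adjusted p = 0.0676 to 0.0942). Tek read 4.67 and 4.31 in B replicates 1 and 2 and 6.44 in B replicate 3. In B replicate 4 it read above the 6.78 and 7.07 of SL replicates 2 and 4. Ccl11 was higher in SL than in A (1.64 ± 0.30, adjusted p = 0.000257), AB (1.59 ± 0.30, adjusted p = 0.00129) and B (1.82 ± 0.30, adjusted p = 0.000339).

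Cartilage and myelin genes followed another order. Panx3 averaged 4.94 ± 0.40 in SL, 9.53 ± 0.48 in group A, 5.49 ± 0.57 in group AB, 6.77 ± 0.65 in group B and 10.21 ± 0.20 in DN (SD, n = 4 each). SL minus AB was -0.56 ± 0.31, adjusted p = 0.365 and SL minus A was -4.60 ± 0.31, adjusted p = 2.04e-09. Mbp averaged 4.95 ± 0.52 in SL, 8.24 ± 0.31 in group A, 5.76 ± 0.59 in group AB, 6.52 ± 0.83 in group B and 8.76 ± 0.38 in DN, and SL minus AB was not called (-0.81 ± 0.35, adjusted p = 0.201) except with the replicate number as a block (adjusted p = 0.0205). Ptch1 stood at 8.92 in SL, 10.21 in group A, 8.90 in group AB, 8.79 in group B and 10.51 in DN. For these genes A lay near DN, and AB and B nearer to SL. Bone genes differed again. Dmp1 was lower in SL than in A (-3.67 ± 0.24, adjusted p = 1.34e-09), AB (-3.66 ± 0.24, adjusted p = 3.02e-09) and B (-3.13 ± 0.24, adjusted p = 6.44e-08). Car3 averaged 5.08 ± 0.44 in SL, 9.57 ± 0.35 in group A, 7.64 ± 0.09 in group AB, 7.15 ± 0.25 in group B and 7.52 ± 0.31 in DN. Spp1 was lower in SL, with differences of -1.02 against A, -1.10 against AB and -0.98 against B, each past the threshold.

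**Figure D5:**
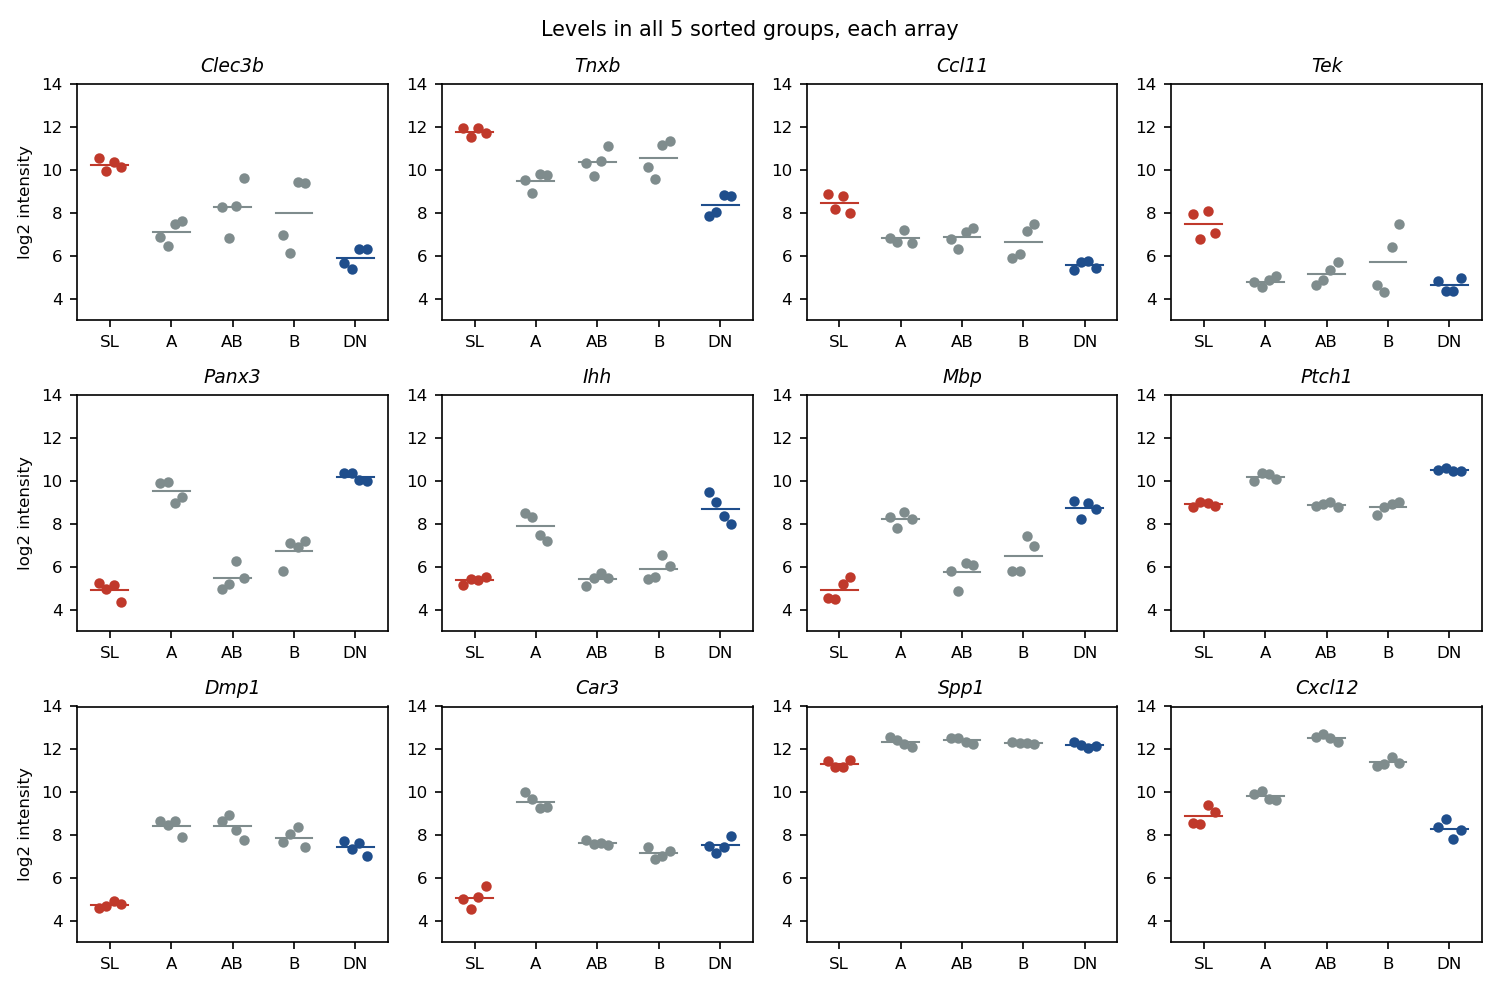
Log2 intensity of 12 genes in all 5 sorted groups, 1 point per array, with bars at group means; SL is red, DN blue and A, AB and B grey. The SL mean is highest for Clec3b, Tnxb, Ccl11 and Tek, SL lies with AB and B below A and DN for Panx3, Ihh, Mbp and Ptch1, and SL is lowest for Dmp1, Car3 and Spp1, while AB is highest for Cxcl12.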

How the data were processed

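RNA of the 20 sorted samples was hybridized to expression arrays, per the labels. The authors' deposited filtered table holds normalized linear intensity for 12440 probe sets, and their series table holds log2 values for 24539; both agreed within 0.0075 log2. How the authors normalized, background-corrected and filtered the signals is not given in the sources, and low signals may understate differences. The authors' deposited comparison table gives, per the file headers, log2 differences as DN minus SL, p-values and q-values.

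Intensities were taken to log2. The 83 probe sets without a symbol were left out, and each of 9129 genes was read from its brightest probe set by mean over the 20 arrays, with 2431 having several; 19 genes had probe sets called in opposite directions. In R 4.3.3 with limma 3.58.1, all 20 arrays were fitted with a mean per group (15 residual and 4.34 prior degrees of freedom), and contrasts were moderated with eBayes. P-values are two-sided and Benjamini-Hochberg adjusted over all genes. The script was tested on simulated data. SL minus A, AB and B came from the same fit. Alternatives were another normalization, filter, choice of probe sets, variance model, fewer arrays and the replicate number as a block.

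The members and lists were chosen with earlier results of these data known. Named genes were the sorted surface transcripts, the 20 largest rises and falls without overlap of the SL and DN arrays, list members with the largest differences or listed first, and all members of short lists. Ackr3, Cd9, Efhd1, Emilin1, Gfpt2, Has1, Hspb1, Hyou1, Irf9, Pcolce2, Pmp22, Rbp4, Sox9, Sox10 and Vegfa were chosen after their values were seen. Results for some genes that met the rule are not reported here. Promoters came from RefSeq (GRCm38.p6), which held at least 1 for 7067 of the genes tested, and the first listed stood for the gene.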

Additional observations from a re-analysis of the deposited data

Results flagged for a closer look

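Among the SL and DN values of the 244 named genes, 22 of 488 sets of 4 arrays held 1 array far from the other 3, by a gap past Dixon's critical share of the set's range. Chance alone gives about 1 such set in 20, and the values follow as log2 intensities, each against the range of the other 3 arrays of its group. In SL replicate 1, C1qtnf7 read 9.86 against 9.34 to 9.41, Esr1 read 8.64 against 8.38 to 8.41, Sfrp2 read 9.97 against 9.26 to 9.30 and Unc5c read 6.46 against 6.005 to 6.08. In SL replicate 2, Cdon read 9.93 against 9.61 to 9.64. In SL replicate 3, Alpl read 10.81 against 11.08 to 11.14, Ibsp read 11.83 against 12.04 to 12.08, Itgav read 9.62 against 9.93 to 9.97, P4ha3 read 7.59 against 8.38 to 8.52, Scx read 7.84 against 8.35 to 8.37 and Sfrp4 read 10.28 against 10.77 to 10.86. In SL replicate 4, Phospho1 read 5.94 against 6.67 to 6.82 and Tcfl5 read 7.13 against 7.77 to 7.88. In DN replicate 1, Mfsd7c read 9.42 against 8.90 to 8.97 and Unc5c read 9.83 against 9.65 to 9.68. In DN replicate 2, Efhd1 read 5.58 against 6.67 to 6.82, Lamc1 read 8.19 against 8.79 to 8.88 and Plod2 read 11.51 against 11.65 to 11.68. In DN replicate 3, Clcn7 read 7.83 against 7.47 to 7.52 and Prrx1 read 9.74 against 9.44 to 9.47. In DN replicate 4, Esr1 read 8.02 against 7.80 to 7.81 and Pecam1 read 7.38 against 5.95 to 6.10.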

How the results depend on the processing

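Counts of genes higher and lower in SL than in DN stayed within 1.5 times of 2174 and 1938 under all alternatives but 2. A log2 difference of at least 1 left 540 and 435. All 24539 probe sets of the series table, an alternative chosen after seeing the data, gave 3310 and 3559. These count probe sets and not genes, so they are not directly comparable with 2174 and 1938. Without the authors' filter no further probe set could be given a symbol. Quantile normalization gave 2005 and 2039, the SL and DN arrays alone 2003 and 1831, and the neutrophil score as a covariate 2261 and 2040. Leaving out 1 array gave 1941 to 2123 and 1740 to 1960. Of 244 named genes, 225 kept their side of the threshold under every alternative scored for them, 11 lost a call at least once, and none was called in the opposite direction. The added log2 difference of at least 1 was not scored for the sorted surface transcripts or for genes that differed by less than 1. Genes that a filter removed were not scored under it. Such cases do not count as lost calls. Of 1890 counts of list members called under the alternatives without a fold threshold, 1795 stayed within 1.5 times. With a log2 difference of at least 1 added, 40 of 90 such counts stayed and 50 moved. The median of the Wnt pathway list turned to -0.0384 among genes that reached an intensity of 200. Pecam1 was called only without DN replicate 4 (0.79, adjusted p = 0.0352), and leaving out any 1 array gave 0.20 (without SL replicate 3) to 0.79. For the other groups, with alternatives also added after seeing the data, genes lower in SL than in AB (449) numbered 255 among genes that reached an intensity of 200, and those lower than in B (628) numbered 284 with that filter and 407 with the neutrophil covariate; fewer genes were tested under the filter, and the cause of the covariate's change was not tested.

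SL and DN arrays carry replicate numbers 1 to 4. Residuals of same-numbered arrays correlated across genes at 0.0211 to 0.303, below 0.1 for number 3, so the numbers were not taken as pairs. Of the 4 SL arrays 3 correlated best with their own number, a hint from the data, not the design. The summed neutrophil level and the summed monocyte and macrophage level were also highest in replicate 4 of all 5 groups, so a shared effect of the number remains possible. With the replicate number as a block, 2320 genes were higher and 2118 lower, and with the SL and DN arrays alone 2064 and 1891. Whether background was subtracted is unknown and no detection call was used, so low signals limit the differences that can be read.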
